A study of Mus musculus with 11 samples.

Results

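The genes described here encode the nuclear-coded subunits of mitochondrial oxidative phosphorylation in the mandibular condylar fibrocartilage, the cartilage that covers the head of the lower jaw. They were chosen by symbol (Nduf, Sdh, Uqcr, Cox4 to Cox8 and Atp5 families, pseudogene symbols left out) with a mean of at least 1 CPM over the 11 libraries (CPM is the count per M counts of the scaled library). Of 23420 symbols in the count table, 84 matched and 81 were kept. The 3 that were dropped, Ndufs5, Cox7b2 and Cox8c, had 0 counts in every library. The members just above the minimum were Cox8b at 1.16, Atp5l at 1.33 and Cox7a1 at 1.58 mean CPM. Complex I had 34 members, complex II 4, complex III 8, complex IV 16 and complex V 15. A further 4 symbols matched by name only and are not constant subunits. These are Ndufa4l2, Cox7a2l, Atp5s and Atp5sl.

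All mice were female C57BL/6, had their ovaries removed at 6 weeks of age and were 7 weeks old at harvest. They carried a pellet for 1 week, which held either placebo or 17β-estradiol (0.01 mg, made to release over 60 days). The groups were ERalphaKO with estradiol (3 samples), ERalphaKO with placebo (3), wild type (WT) with estradiol (3) and WT with placebo (2). ERalphaKO mice, written KO below, lack estrogen receptor alpha, and the labels do not say how the allele was made. Whether the samples of a group came from separate animals is not given either, and a p-value here speaks only of the sample-to-sample spread, part of which can be technical. The dissected tissue holds several cell types, so fewer cells of a type and less RNA per cell cannot be told apart.

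The respiratory chain sits in the inner mitochondrial membrane. Complexes I (NADH dehydrogenase) and II (succinate dehydrogenase) pass electrons to ubiquinone, complex III passes them on to cytochrome c, and complex IV hands them to oxygen. Complexes I, III and IV pump protons, and complex V, the ATP synthase, lets the protons back to make ATP. Cartilage has little blood supply, and its cells are known for drawing much of their ATP from glycolysis. Most subunits come from nuclear genes, whose promoters are known to be shared targets of NRF1, YY1, ETS factors such as GABPA and estrogen-related receptors. The last are orphan receptors that do not bind estradiol. The few subunits made from mitochondrial DNA are not among the genes chosen.

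Libraries held 15.7 to 25.5 M counts, and 80 of the 81 members had counts in every library. The ribosomal precursor Rn45s took 16.04% of counts in WT placebo 2 and 1.83% to 3.13% elsewhere. Esr1, the gene of the receptor, had 2.55 to 4.86 CPM in KO libraries, against 6.43 to 13.4 CPM in WT libraries. Summed markers of skeletal muscle were highest in WT placebo 2 and KO placebo 1 and 2 (559 to 1260 CPM). Neutrophil markers were highest in the KO estradiol libraries (1266 to 4543 CPM). Of 10 chondrocyte markers 9 are in the table, and their sum ran from 8499 to 24007 CPM.

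Promoters of 4 members that were called lower in KO than in WT under estradiol are shown. They were picked because their start regions differ in the motifs they hold. None of the 4 kept its call in a fit with an offset for gene length, described below. Each line gives the 200 bases upstream of the start, 5′ to 3′, from RefSeq on GRCm38.p6, with motif matches in capitals. Cox6a1 (chr5:115348959-115349158, minus strand) and Atp5g2 (chr15:102671048-102671247, minus strand) hold the NRF1 motif, Uqcrh (chr4:116075071-116075270, minus strand) holds the ETS motif on the opposite strand, and Uqcr10 (chr11:4704345-4704544, minus strand) holds none of the motifs searched.
Cox6a1: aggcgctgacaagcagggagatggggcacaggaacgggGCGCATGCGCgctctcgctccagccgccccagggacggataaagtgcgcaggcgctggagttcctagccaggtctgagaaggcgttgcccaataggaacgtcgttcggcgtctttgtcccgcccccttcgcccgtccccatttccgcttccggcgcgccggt
Atp5g2: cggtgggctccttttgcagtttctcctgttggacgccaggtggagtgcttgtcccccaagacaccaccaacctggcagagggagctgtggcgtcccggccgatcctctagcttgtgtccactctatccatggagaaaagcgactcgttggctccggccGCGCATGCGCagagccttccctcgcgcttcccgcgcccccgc
Uqcrh: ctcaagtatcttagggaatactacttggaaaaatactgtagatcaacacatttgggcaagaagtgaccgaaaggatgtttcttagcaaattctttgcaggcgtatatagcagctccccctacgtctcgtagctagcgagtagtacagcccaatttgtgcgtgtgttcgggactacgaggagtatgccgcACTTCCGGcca
Uqcr10: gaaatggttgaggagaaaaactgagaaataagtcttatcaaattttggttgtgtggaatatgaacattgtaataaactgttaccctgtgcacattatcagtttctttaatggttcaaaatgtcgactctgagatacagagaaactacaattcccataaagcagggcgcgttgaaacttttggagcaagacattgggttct

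A promoter window of RefSeq (250 bases before to 50 after the start) was matched to 67 of the 81 members and compared with the windows of all 27025 genes on both strands. The NRF1 motif, searched as its core GCGCATGC, was in 10 members (14.9%), against 3.05% of all genes. These were Atp5g2, Atp5k, Atp5l, Cox6a1, Ndufa11, Ndufa6, Ndufa8, Sdhb, Uqcr11 and Uqcrc1. The YY1 motif AAGATGGCG was in 8 others (11.9%, against 1.64% of all genes), namely Atp5j, Atp5j2, Atp5sl, Ndufa9, Ndufc1, Ndufs4, Ndufs6 and Ndufs7. The ETS motif CCGGAAGT was in Atp5h, Cox8a, Ndufs3, Uqcr11 and Uqcrh (7.46%, against 4.31%). The estrogen-related receptor motif TCAAGGTCA was in Atp5g3 and Sdhd (2.99%, against 0.466%). The palindromic estrogen response element (GGTCA, any 3 bases, then TGACC) was in 0 of the 67 windows, against 0.0740% of all genes. Its single arm AGGTCA, which the estrogen-related receptor motif contains, was in 14 windows (20.9%, against 18.1%). Such matches describe the letters of these windows and do not show binding.

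Per kb of exonic length the members' levels spanned a wide range. Atp5b, the catalytic beta subunit of the ATP synthase, was the highest at a mean of 323 CPM per kb over the 11 libraries. It was followed by Ndufa4l2 at 249, Cox6a1 at 227 and Cox4i1, the common form of the regulatory subunit 4, at 221 CPM per kb. The flavoprotein Sdha of complex II had 60.5 CPM per kb, and the NADH-oxidizing core subunit Ndufv1 lay below it. Ndufb4 at 4.95 and Atp5l at 2.44 CPM per kb lay far below the other accessory subunits of their complexes. Both are known to have near-identical copies elsewhere in the genome and the counting rule is not given in the sources used here, so their levels, like the 0 of Ndufs5, are uncertain.

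The members varied little between libraries and largely together. The median coefficient of variation over the 11 libraries was 13.4% (4.35% to 152%), lowest for Sdha and highest for a muscle isoform of complex IV. WT estradiol 3 was the highest library for 50 members and WT placebo 2 for 22. KO estradiol 3 was the lowest library for 32 members, KO placebo 3 for 18 and KO estradiol 1 for 17. In KO estradiol 3 all 81 members were under their own mean over the libraries, and in WT placebo 2 a total of 78 were above it. WT placebo 1 went with the KO libraries, with 55 of 81 under their mean.

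**Figure D1:**
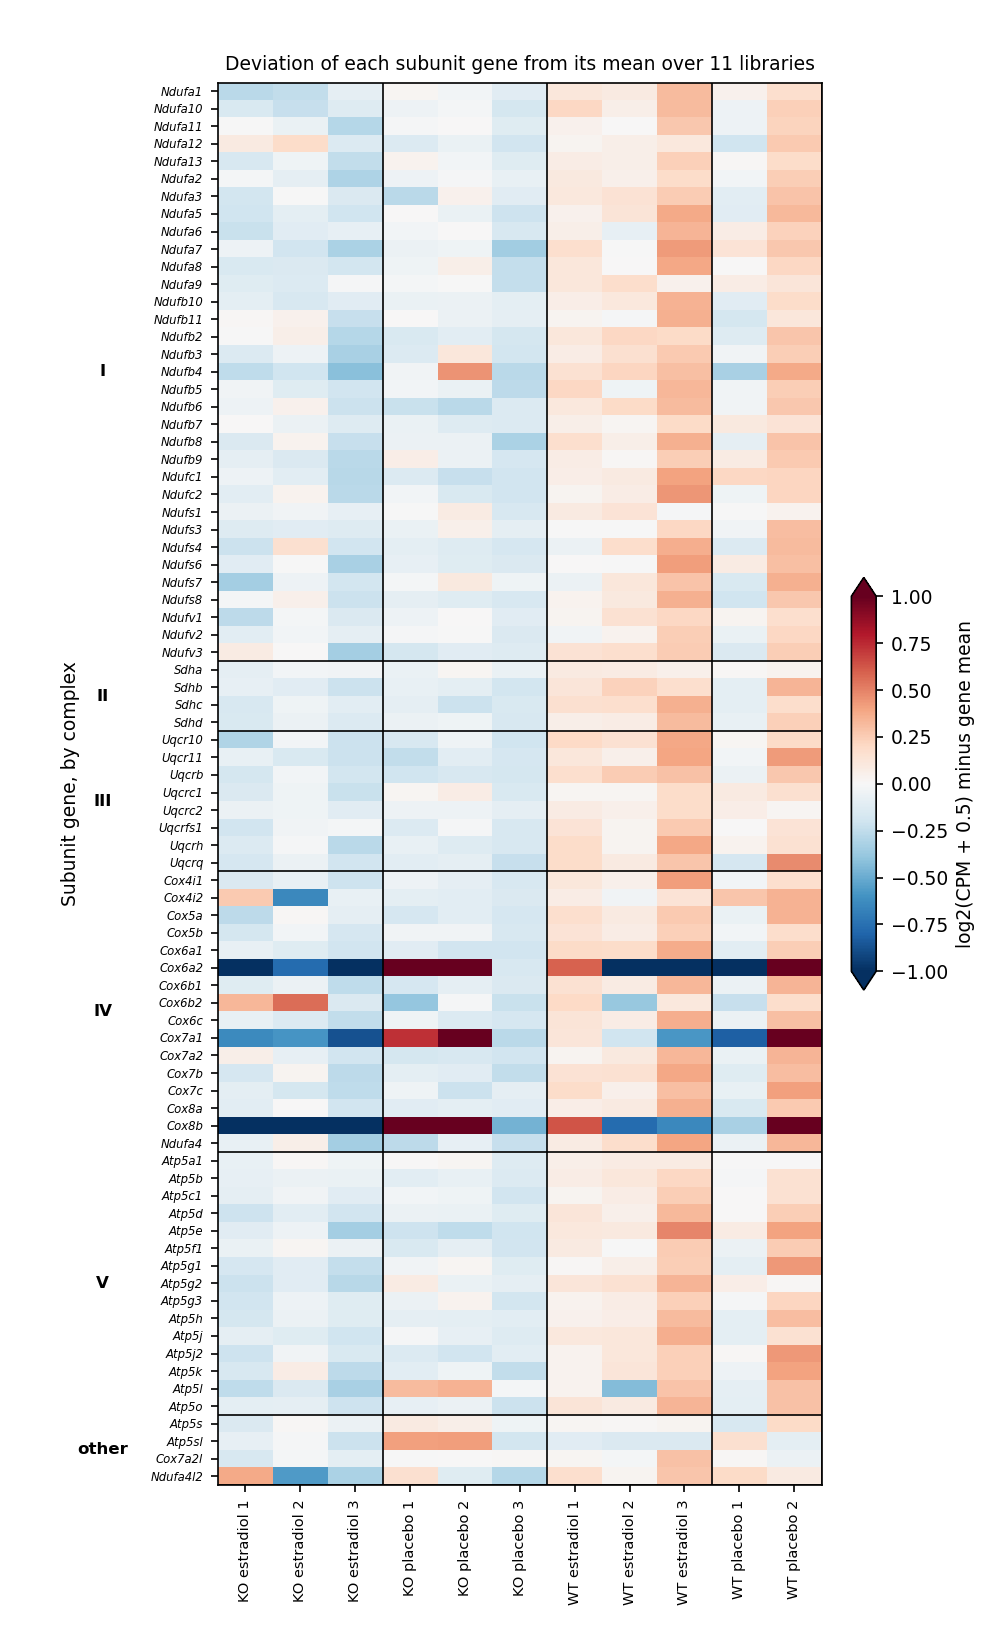
Log2(CPM + 0.5) of 80 of the 81 genes (rows, by complex) minus its mean over the 11 libraries (columns, KO estradiol, KO placebo, WT estradiol, WT placebo), with red above and blue below the mean and the colour capped at 1. Most rows are blue in KO libraries and red in WT estradiol 3 and WT placebo 2, while Cox6a2, Cox7a1 and Cox8b follow a pattern of their own.

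Summed over the 81 members, the level was 5447, 5512 and 5186 CPM in KO estradiol libraries and 5552, 5581 and 5189 CPM in KO placebo libraries. It was 6176, 6129 and 6945 CPM in WT estradiol libraries and 5709 and 6648 CPM in WT placebo libraries. Every KO library lay below every WT library, and the nearest pair was KO placebo 2 and WT placebo 1. Group means were 5382 ± 173 CPM (KO estradiol, SD, n = 3), 5441 ± 219 (KO placebo, n = 3), 6417 ± 458 (WT estradiol, n = 3) and 6178 ± 664 (WT placebo, n = 2). As a share of all counts before scaling, the members took 0.533% to 0.592% in KO estradiol and 0.508% to 0.563% in KO placebo libraries, against 0.615% to 0.730% in WT estradiol and 0.549% to 0.593% in WT placebo libraries. Complex V took the largest part, with 1969 ± 51.2 CPM in KO estradiol and 2285 ± 137 CPM in WT estradiol libraries (SD, n = 3 each), followed by complex I with 1347 ± 59.6 and 1621 ± 132 CPM.

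**Figure D2:**
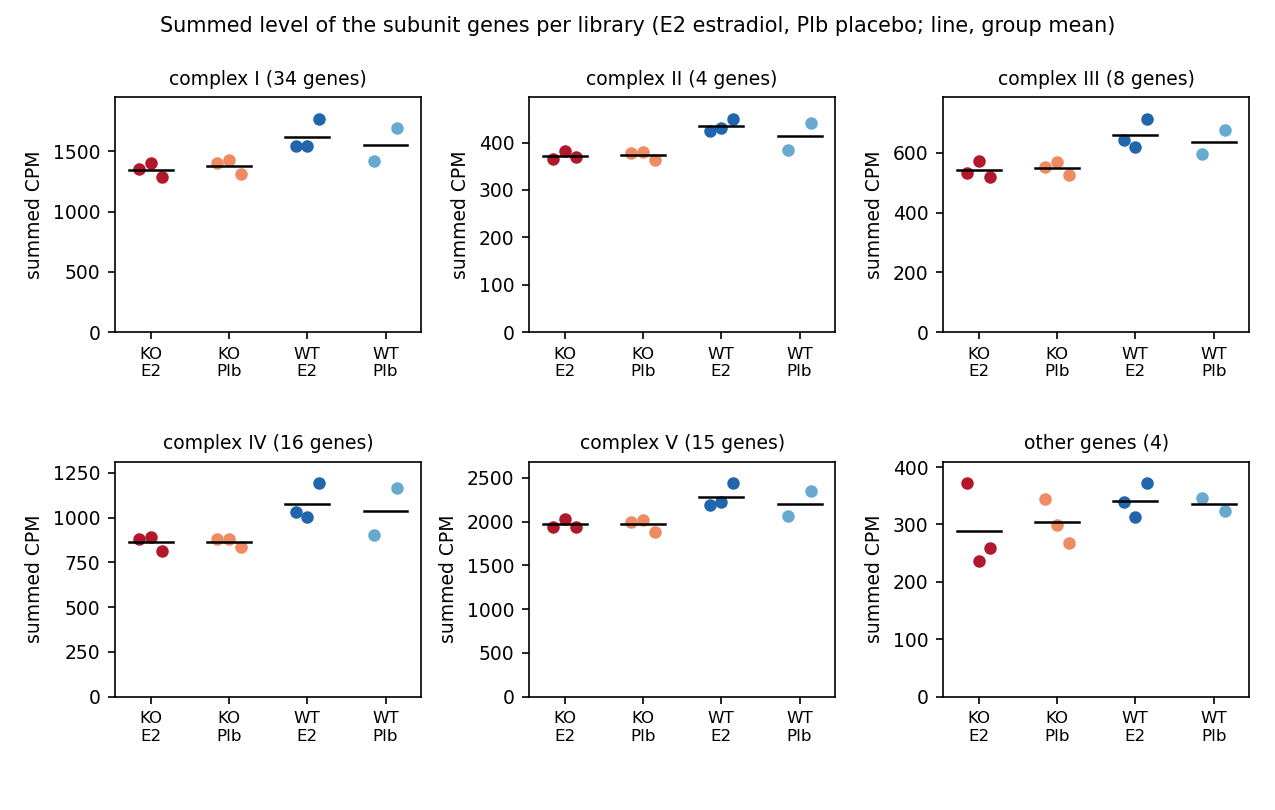
Summed CPM of the members of each complex (y axes, from 0) in each library (points) by group, with lines at the group means, E2 for estradiol and Plb for placebo. In complexes I to V each KO library lies below each WT library that had the same pellet, except that KO placebo 2 (1429 CPM) is above WT placebo 1 (1420 CPM) in complex I, and the other 4 genes overlap.

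Under estradiol, 13 of the 81 members fell in KO relative to WT fibrocartilage at an adjusted p under 0.05, and 0 rose. Of all 14531 genes tested, 11.5% were called in this comparison, made up of 4.2% lower and 7.27% higher. The members' median log2 difference was -0.28, against -0.00099 for all genes tested, and 79 of 81 lay below 0, where 49.8% of all genes lay above it. At an unadjusted p under 0.05, 57 members were lower, where 12% of all genes were. The groups did not overlap, with KO lower, in 61 members, where 16.9% of all genes did so. By complex, the median log2 difference was -0.28 in complex I (3 of 34 called), -0.29 in complex II (1 of 4), -0.34 in complex III (3 of 8), -0.34 in complex IV (2 of 16) and -0.26 in complex V (4 of 15). The other 4 genes had a median of -0.14 with 0 called.

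Over all genes, the difference under estradiol varied with exonic length, and most members are short. Of the 81 members, 75 were in the shortest of 3 equal classes of the 13847 tested genes with a known exonic length (up to 2524 bases), and their own median was 983 bases. Over all genes, the median log2 difference of KO over WT under estradiol was -0.12 in the shortest class, -0.01 in the middle class and 0.12 in the longest class. It was -0.24 over the 531 tested genes of up to 1000 bases, 41 of which are members, and -0.30 over 83 genes of cytosolic ribosomal proteins. In a fit added after seeing the data, each library's trend with exonic length was taken out as an offset. The members' median then came to -0.07, with 65 of 81 below 0, and 2 were called lower, Sdhc (log2 difference -0.30, adjusted p 0.0312) and Ndufa10 (-0.27, adjusted p 0.0428). In that fit 10.7% of all genes were called, and 3.68% were called lower. Fitting the trend without the members gave a median of -0.07 and the same 2 calls. The offset would also take out a genotype difference that short genes share, so this fit cannot tell such a difference from a length trend. The source of the length trend was not tested.

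**Figure D3:**
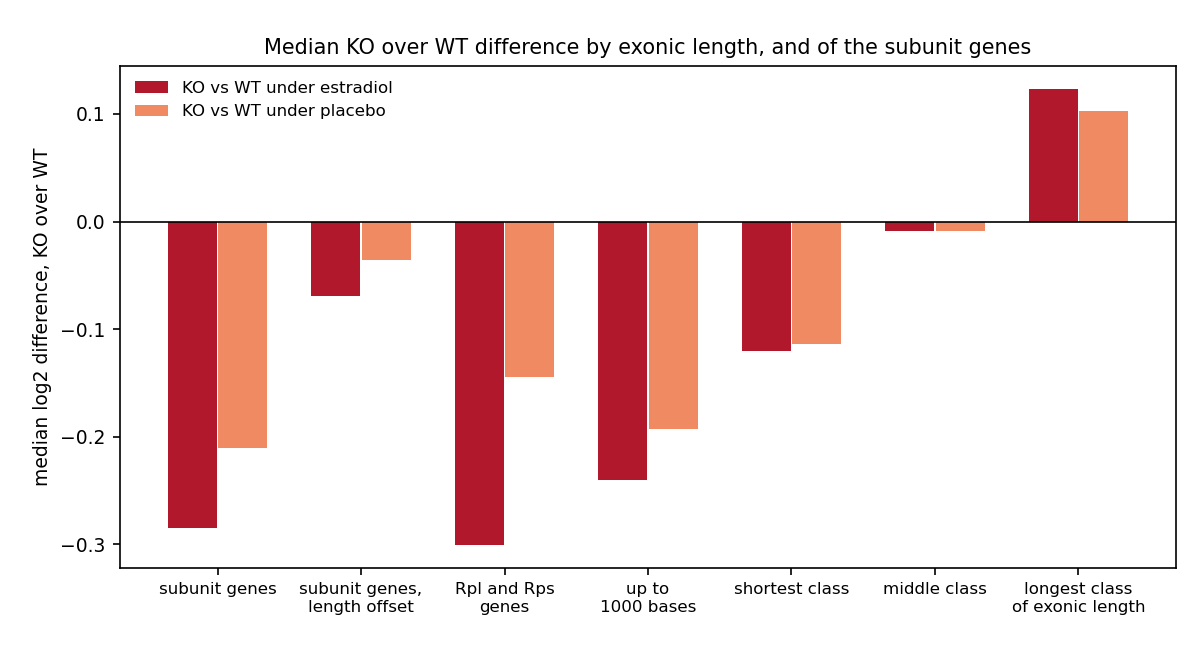
Median log2 difference of KO over WT (y axis) under estradiol and under placebo for the 81 subunit genes, the same genes with a length offset, Rpl and Rps genes, and all tested genes by exonic length. Under estradiol the subunit genes stand at -0.28 and genes of up to 1000 bases at -0.24, and the subunit genes come to -0.07 with the offset.

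Leaving out single libraries also moved the count of calls. It was 0 without WT estradiol 3, 1 without KO estradiol 3, 3 without KO estradiol 1, 4 without KO estradiol 2 and 5 without WT estradiol 1. It was 28 without WT placebo 1 and 24 without WT placebo 2, which are not part of this comparison but share its estimate of spread, gene filter and scaling. Calls over all genes moved too, from 867 to 1850 with single libraries left out, against 1667 with every library kept. The cause of these moves was not tested. Every member call in these fits was lower in KO. The median log2 difference kept its sign, and without WT estradiol 3 it was -0.22 with 32 members lower at an unadjusted p under 0.05. DESeq2 called 26 members lower and limma-voom 11, and their shares over all genes are not given here. The authors' deposited table lists 22 members lower at an adjusted p under 0.05, where 13% of its genes with an adjusted p passed in either direction.

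Complex I gave 3 of the 13 calls. Ndufa10, an accessory subunit of the membrane arm, had 44.1, 41.7 and 45.0 CPM in KO estradiol libraries, against 56.8, 51.2 and 61.3 CPM in WT estradiol libraries (log2 difference -0.37, SE 0.10, adjusted p 0.0264). Ndufa1, a small membrane-arm subunit encoded on the X chromosome, had 31.3, 31.8 and 35.6 CPM in KO, against 40.9, 40.1 and 47.3 CPM in WT (-0.38, SE 0.09, adjusted p 0.0195). The groups did not overlap for either gene. With the length offset the difference of Ndufa1 was -0.03 (adjusted p 0.856). Over the 7 core subunits the median was -0.23, and all 7 lay below 0. Ndufv1, which takes electrons from NADH, had 52.9, 62.9 and 57.5 CPM in KO, against 64.8, 70.8 and 73.5 CPM in WT (log2 difference -0.27, adjusted p 0.0589). Ndufs1, the largest iron-sulfur subunit, had 71.7 ± 1.14 CPM in KO and 78.7 ± 4.08 CPM in WT (SD, n = 3 each; log2 difference -0.13, adjusted p 0.292).

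In complex II, the membrane anchor Sdhc had 63.9, 69.2 and 66.5 CPM in KO estradiol libraries, against 79.8, 80.4 and 91.4 CPM in WT estradiol libraries. No KO library reached the lowest WT library, and the log2 difference was -0.33 (SE 0.09, adjusted p 0.0296). The iron-sulfur subunit Sdhb had 59.7 ± 2.87 CPM in KO and 74.0 ± 2.67 CPM in WT, and did not pass (log2 difference -0.31, adjusted p 0.0649). Sdha, with an exonic length of 2900 bases the longest of the 4, had 169 ± 4.27 CPM in KO and 185 ± 2.98 CPM in WT (log2 difference -0.13, adjusted p 0.238).

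In complex III, 3 small subunits were lower. Uqcr10 had 39.9, 48.6 and 42.5 CPM in KO estradiol libraries, against 56.6, 55.0 and 64.7 CPM in WT estradiol libraries (log2 difference -0.43, SE 0.10, adjusted p 0.0143). It had the smallest p of the members and, at 434 bases, is among the shortest. With the length offset its difference was -0.10 (adjusted p 0.492). Uqcrb had 52.0, 57.5 and 51.7 CPM in KO, against 66.0, 69.9 and 72.1 CPM in WT (-0.37, SE 0.09, adjusted p 0.0201). Uqcrh, the hinge protein that helps cytochrome c dock, had 86.5, 94.2 and 78.8 CPM in KO, against 108, 97.0 and 124 CPM in WT (-0.34, SE 0.10, adjusted p 0.0401). For Uqcrh only a small gap separated KO estradiol 2 and WT estradiol 2. Uqcrfs1, the Rieske iron-sulfur protein, and Uqcrc1, a core protein, did not pass (log2 differences -0.23 and -0.21, adjusted p 0.112 and 0.134).

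In complex IV, Cox6a1, the broadly expressed form of subunit 6a, had 122, 118 and 113 CPM in KO estradiol libraries, against 146, 146 and 166 CPM in WT estradiol libraries (log2 difference -0.38, SE 0.09, adjusted p 0.0239). Cox4i1 had 152, 160 and 145 CPM in KO, against 182, 174 and 225 CPM in WT (-0.34, SE 0.10, adjusted p 0.0445). WT estradiol 3 stood above both other WT libraries for either gene. The 11 broadly expressed members had a median of -0.34, and all 11 lay below 0. Cox5a, which binds next to the catalytic core, had 62.2 ± 5.87 CPM in KO and 75.8 ± 4.51 CPM in WT and did not pass (log2 difference -0.28, adjusted p 0.109). With the length offset Cox6a1 and Cox4i1 both came to -0.09, with adjusted p 0.412 and 0.392.

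In complex V, 4 members were lower. Atp5g2, a gene for subunit c of the proton-driven ring, had 21.7, 23.3 and 20.7 CPM in KO estradiol libraries, against 27.4, 28.1 and 32.0 CPM in WT estradiol libraries (log2 difference -0.41, SE 0.10, adjusted p 0.0158). Both other genes for the same subunit had values below their WT group without passing. Atp5g1 was at 35.7 ± 1.61 CPM in KO and 43.5 ± 3.86 CPM in WT (log2 difference -0.29, adjusted p 0.152), and Atp5g3 was at 122 ± 5.81 CPM in KO and 144 ± 11.1 CPM in WT (-0.24, adjusted p 0.11). The central-stalk subunits Atp5d and Atp5e and the peripheral-stalk coupling factor Atp5j also fell. Atp5d had 95.7, 103 and 97.0 CPM in KO, against 121, 115 and 139 CPM in WT (-0.34, SE 0.09, adjusted p 0.0285). Atp5j had 89.8, 87.6 and 83.3 CPM in KO, against 103, 104 and 123 CPM in WT (-0.34, SE 0.09, adjusted p 0.0333). Atp5e had 63.1, 65.8 and 53.7 CPM in KO, against 73.4, 72.8 and 95.7 CPM in WT (-0.41, SE 0.12, adjusted p 0.0493), and was called in 5 of 21 alternatives. With the length offset none of the 4 was called, at -0.16 for Atp5g2, -0.18 for Atp5d, -0.14 for Atp5j and -0.07 for Atp5e (adjusted p 0.311, 0.0648, 0.154 and 0.571). In the catalytic head the differences were smaller and neither passed. Atp5b had 588 ± 4.91 CPM in KO and 676 ± 31.7 CPM in WT (log2 difference -0.20, adjusted p 0.11), and the alpha subunit Atp5a1 had 461 ± 13.4 CPM in KO and 497 ± 4.83 CPM in WT (-0.11, adjusted p 0.357). These smaller values were not tested against those of the other subunits, and both genes are longer than most members.

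**Figure D4:**
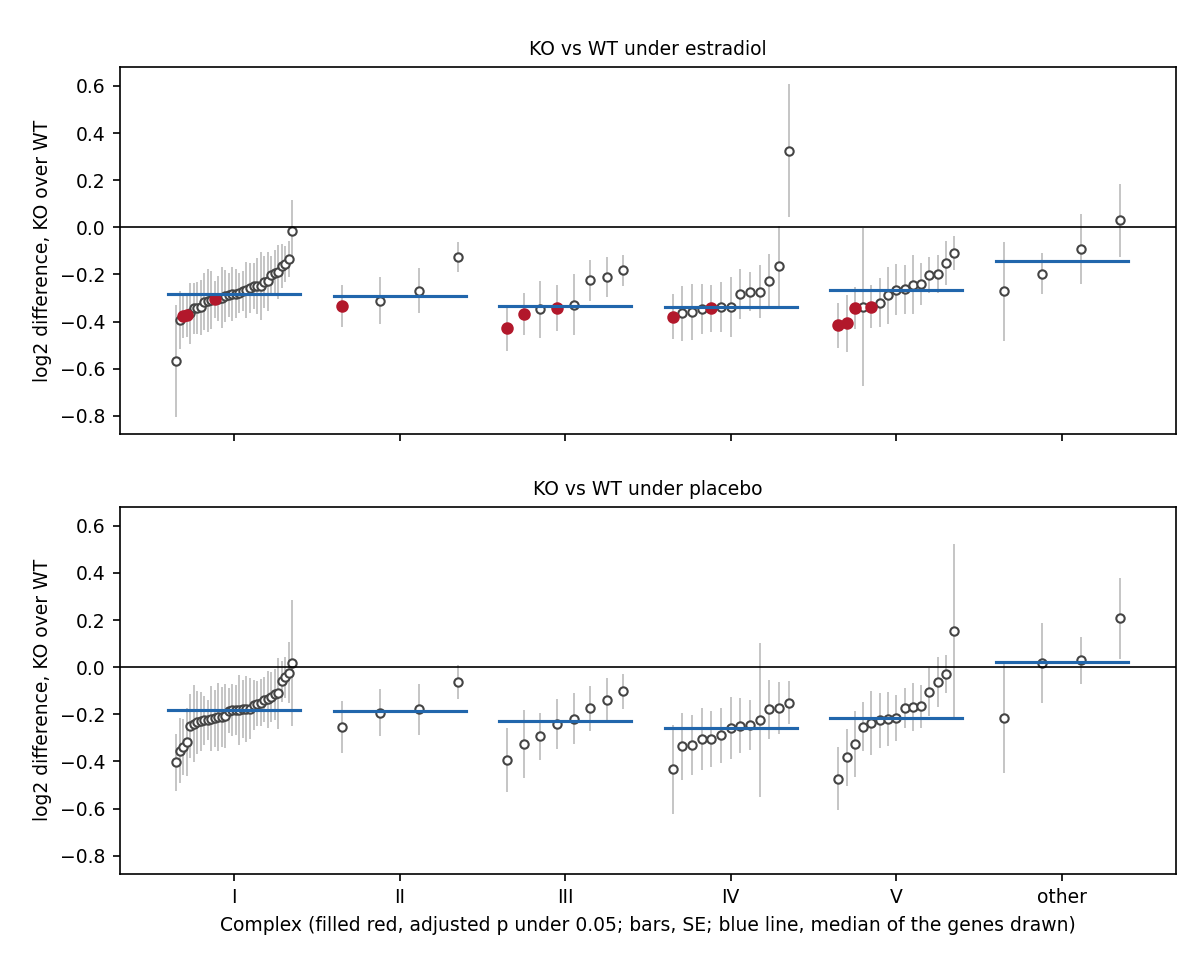
Log2 difference of KO over WT (y axis, bars for the SE) of each member by complex, under estradiol (upper) and placebo (lower), with filled red points for adjusted p under 0.05 and blue lines for the median of the genes drawn. Under estradiol 13 genes are filled, in complexes I, II, III, IV and V, and under placebo 0 are, and Cox6a2, Cox7a1 and Cox8b are left out because their values lie outside the axis or have wide errors.

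Markers of other cell types also differed in the estradiol comparison. Summed osteoclast markers were 8031 to 9512 CPM in KO estradiol libraries, against 12406 to 12879 CPM in WT estradiol libraries. Of 8 osteoclast markers, 6 were called lower in KO, where 4.2% of all genes were. Among them was Acp5 (log2 difference -0.82, adjusted p 0.000491). Such counts are not given for the other cell types. Neutrophil markers summed to 1266 to 4543 CPM in KO, against 7.97 to 41.7 CPM in WT, and B lineage markers to 134 to 253 CPM, against 11.2 to 16.0 CPM. Erythroid markers were at 18.0 to 217 CPM in KO, against 22.5 to 23.0 CPM in WT, with 2 of 8 at 0 in every library. Markers of dividing cells were at 460 to 632 CPM in KO, against 316 to 440 CPM in WT. Muscle markers were at 11.6 to 15.6 CPM in KO, against 38.0 to 281 CPM in WT, and adipocyte markers at 7.82 to 33.6 CPM, against 3.87 to 7.62 CPM. Chondrocyte markers overlapped, with 8499 to 17847 CPM in KO and 13824 to 24007 CPM in WT. Their part in the result was not tested.

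Under placebo, KO and WT differed in the same direction for most members without a call. The median log2 difference was -0.21, against -0.0033 for all genes tested, 76 of 81 members lay below 0 where 49.3% of all genes lay above it, and 0 were called, in a comparison where 0.00688% of all genes were called. At an unadjusted p under 0.05, 22 members were lower, where 4.2% of all genes were, and 0 higher. The groups did not overlap, with KO lower, in 31 members, where 13.8% of all genes did so. DESeq2 and limma-voom each called 0, and the authors' deposited table lists 1 member lower, where 0.241% of its genes with an adjusted p passed. The smallest p belonged to Atp5e, which had 59.0, 57.0 and 59.3 CPM in KO placebo libraries, against 72.2 and 90.2 CPM in WT placebo libraries (log2 difference -0.47, SE 0.13, adjusted p 0.468). Cox4i2, the alternative form of subunit 4, had the largest difference in complex IV outside the muscle forms, with 42.1, 41.7 and 40.7 CPM in KO, against 54.7 and 57.6 CPM in WT (-0.43, SE 0.19, adjusted p 0.538). It is the member that the authors' deposited table lists as lower (their adjusted p 0.0309).

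The placebo difference changed with the WT library left out and with the length offset. The median log2 difference was -0.35 without WT placebo 1 and -0.046 without WT placebo 2, and in the first of these fits 1 member was called. With the length offset it was -0.04, with 3 members lower at an unadjusted p under 0.05. Over all genes the median was -0.11 in the shortest class of exonic length and 0.10 in the longest class. Summed osteoclast markers overlapped between the groups (8650 to 9853 CPM in KO placebo, against 8900 to 10631 CPM in WT placebo), and muscle markers ran from 87.8 to 795 CPM in KO placebo and 43.1 to 1260 CPM in WT placebo. Chondrocyte markers did not overlap, with 9037 to 12218 CPM in KO placebo, against 12899 to 22341 CPM in WT placebo libraries, and neither did B lineage markers, with 65.1 to 139 CPM, against 47.8 to 48.0 CPM. The sums of neutrophil, erythroid, adipocyte and dividing-cell markers overlapped. The part of these cells in the placebo difference was not tested. WT estradiol and KO estradiol libraries are separate from these, so the 2 genotype comparisons share no sample. They do share the same fit and its estimate of spread, and same-numbered KO placebo and KO estradiol samples deviated together. The 2 comparisons are therefore not independent.

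No subunit gene was called for estradiol over placebo in either genotype. In WT, 0 of 81 members were called, where 1.55% of all genes were. The median log2 difference of estradiol over placebo was 0.04, against 0.0023 for all genes tested, and 60 members lay above 0, where 50.6% of all genes did. At an unadjusted p under 0.05, 1 member passed, where 14% of all genes did. DESeq2 and limma-voom called 0 as well. The median depended on the placebo library, being -0.093 without WT placebo 1 and 0.21 without WT placebo 2, so a common shift of that size could not be told from the gap between the 2 placebo samples. The placebo comparison of the genotypes uses the same 2 samples.

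In KO, 0 of 81 members were called, where 2.73% of all genes were, and the median log2 difference was -0.02, against -0.0026 for all genes tested, with 30 members above 0, where 49.5% of all genes were. At an unadjusted p under 0.05, 4 were lower (Cox6a2, Cox7a1, Cox8b and Atp5sl), where 6.8% of all genes were, and 0 higher. DESeq2 called Cox7a1 and Cox8b, and limma-voom called 0. The authors' deposited table lists 3 members lower (Cox6a2, Cox7a1 and Cox8b), where 7.52% of its genes with an adjusted p passed. A block for the replicate number left the members' count at 0, while all genes called came to 629, against 396 without it. Atp5sl, now named Dmac2 and known as an assembly factor of complex I, had 15.5, 16.3 and 14.1 CPM in KO estradiol, against 22.1, 22.1 and 14.4 CPM in KO placebo libraries. The log2 difference was -0.35 (adjusted p 0.270). It was -0.54 without KO placebo 3, where the gene was called (adjusted p 0.0457), and it turned to 0.09 (adjusted p 0.969) without the 3 muscle-rich placebo libraries, which leaves KO placebo 3 as the only KO placebo sample.

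The effect of estradiol was not shown to differ between genotypes for any member. The interaction, WT effect minus KO effect, was called for 0 of 81 members, where 1.15% of all genes were called. Its median was 0.07, against -0.00063 for all genes tested, and 67 members lay above 0, where 49.8% of all genes did. At an unadjusted p under 0.05, where 11.6% of all genes passed, the single member was Atp5g2 (0.35, SE 0.14, adjusted p 0.338), and DESeq2 and limma-voom called 0. Atp5g2 had 26.8, 24.1 and 23.7 CPM in KO placebo and 26.5 and 25.4 CPM in WT placebo libraries, so these overlapped, unlike the estradiol groups. The median of the interaction was 0.24 without WT placebo 2 and -0.048 without WT placebo 1.

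Complex IV has alternative subunits that mark tissues. Cox6a2, Cox7a1 and Cox8b are the heart and skeletal muscle forms, and here their levels followed muscle markers by library. Cox6a2 had 0.279, 0.772 and 0.447 CPM in KO estradiol and 3.93, 10.2 and 1.44 CPM in KO placebo libraries. In WT it had 2.76, 0.506 and 0.495 CPM with estradiol and 0.538 and 16.7 CPM with placebo. The high libraries, WT placebo 2 and KO placebo 1 and 2, are the ones highest in muscle markers (1260, 559 and 795 CPM). In KO estradiol libraries, the muscle sum was 15.2, 11.6 and 15.6 CPM. Cox7a1 had 0.614, 0.653 and 0.447 CPM in KO estradiol, against 2.37, 4.36 and 0.934 CPM in KO placebo libraries (log2 difference -2.16, SE 0.77, adjusted p 0.184). Cox8b had 0 counts in each KO estradiol library, which allows up to 0.134 to 0.178 CPM (3 counts per library). It had 2.16, 3.61 and 0.340 CPM in KO placebo libraries, so KO estradiol was at least 12.7-fold lower in the mean (not called, adjusted p 0.146). For this comparison the authors' deposited table does list Cox8b, Cox7a1 and Cox6a2 as lower (their adjusted p 4.3e-07, 0.0058 and 8.3e-06). The bound was 7.81-fold without KO placebo 2, and 2.13-fold against KO placebo 3 alone, with both muscle-rich KO placebo libraries left out. Cox8b averaged 0.311 CPM over the 8 libraries left without the 3 richest in muscle markers, so it met the minimum of 1 CPM through those 3. Against WT estradiol, with 1.30, 0.184 and 0.247 CPM, KO estradiol was at least 3.61-fold lower (adjusted p 0.191), a bound that fell to 1.35-fold without WT estradiol 1. There too the authors' table lists Cox8b as lower (their adjusted p 0.0035). The broadly expressed partners did not share the pattern. Cox8a had 72.4, 78.4 and 68.5 CPM in KO estradiol, against 72.0, 73.1 and 72.0 CPM in KO placebo libraries, and Cox7a2 had 60.7, 54.8 and 50.9 CPM, against 51.3, 52.0 and 50.8 CPM. Cox6a2 and Cox7a1 also averaged under 1 CPM over the 8 libraries outside the 3 richest in muscle markers. All 3 muscle forms thus met the minimum through libraries where they were high. Their link with muscle markers is therefore a description only. The part of muscle tissue in the isoform levels was not tested.

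**Figure D5:**
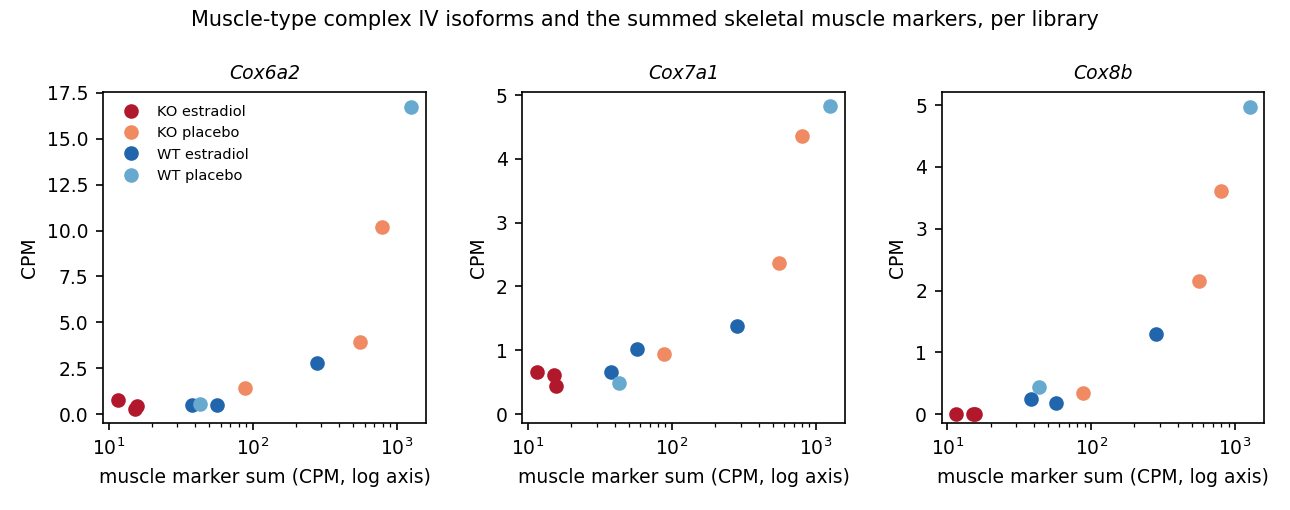
CPM (y axis) of Cox6a2, Cox7a1 and Cox8b against the summed skeletal muscle markers of the same library (x axis, log scale), 1 point per library, coloured by group. WT placebo 2 and KO placebo 2, with muscle sums of 1260 and 795 CPM, have the highest level of all 3 genes, and the KO estradiol libraries lie at the low end.

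Isoforms known to be induced by low oxygen were present in all groups. Ndufa4l2, a paralog of the complex IV subunit Ndufa4 and known as a target of hypoxia-inducible factor, exceeded Ndufa4 per kb in every library. Its share of the pair was 60.1% to 76.1% in KO estradiol, 69.1% to 75.7% in KO placebo, 67.7% to 71.2% in WT estradiol and 66.4% to 73.5% in WT placebo libraries, and these ranges overlap. Ndufa4l2 had 297, 154 and 183 CPM in KO estradiol, against 257, 232 and 276 CPM in WT estradiol libraries (log2 difference -0.27, SE 0.21, adjusted p 0.446). KO estradiol 1 was the highest of all 11 libraries and KO estradiol 2 the lowest, and without KO estradiol 1 the gene was called (-0.60, adjusted p 0.0177). Ndufa4 had 62.3, 68.1 and 51.8 CPM in KO estradiol, against 69.4, 74.0 and 86.5 CPM in WT estradiol libraries (-0.34, adjusted p 0.112). Cox4i2, the form of subunit 4 found in lung and oxygen-sensing cells, made up 14.8% to 25.7% of the Cox4 pair per kb. It had 54.2, 28.6 and 42.8 CPM in KO estradiol, against 47.4, 43.8 and 49.5 CPM in WT estradiol libraries (-0.16, SE 0.17, adjusted p 0.582). Cox4i2 and Ndufa4l2 were both highest in KO estradiol 1 and lowest in KO estradiol 2 within that group.

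The remaining isoform groups showed no call. Cox6b2, known as the testis form, had 3.18, 3.80 and 2.14 CPM in KO estradiol, against 2.84, 1.75 and 2.64 CPM in WT estradiol libraries, and it took at most 3.73% of its pair with Cox6b1 per kb. Cox6b1 had 76.9 ± 5.39 CPM in KO estradiol and 97.1 ± 8.84 CPM in WT estradiol libraries (log2 difference -0.34, adjusted p 0.0583). Cox7a2l is known for a role in joining complexes III and IV into supercomplexes, which was not examined in these mice. It had 57.6 ± 2.84 CPM in KO estradiol and 66.0 ± 8.13 CPM in WT estradiol libraries (-0.20, adjusted p 0.174).

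Other genes of mitochondrial energy metabolism were counted in the same fit. Of 76 mitochondrial ribosomal protein genes, 3 were called lower in KO than in WT under estradiol, Mrps23 (log2 difference -0.35), Mrpl17 (-0.37) and Mrpl4 (-0.30), with a list median of -0.20 and 73 below 0. That share of the list is close to the 4.2% of all genes called lower. Over all 177 tested genes of these lists 4 were called (2.26%), against 11.5% of all genes in either direction. Of 35 assembly factors of the respiratory complexes 0 were called (median -0.12, 27 below 0). Of 19 genes of the TCA cycle and pyruvate dehydrogenase 0 were called, and all 19 lay below 0 (median -0.13). Among 14 tested genes for cytochrome c and inner membrane carriers, Slc25a4, the muscle and heart form of the ADP/ATP exchanger, was called. It had 192, 188 and 181 CPM in KO estradiol, against 230, 226 and 246 CPM in WT estradiol libraries (log2 difference -0.32, adjusted p 0.0448). Of 16 glycolysis and lactate genes 0 were called (median -0.19), and of 17 regulators of mitochondrial genes 0 were called (median 0.07, 10 above 0). With the length offset, the medians were -0.05 for the ribosomal proteins, -0.05 for the assembly factors, -0.04 for the TCA cycle, -0.05 for the carriers and -0.12 for glycolysis, and Slc25a4 was not called (-0.21, adjusted p 0.106). Of the mitochondrial ribosomal proteins Mrps23 and Mrpl4 were not called in that fit (-0.19 and -0.13). Mrpl17 was called lower (-0.54, adjusted p 0.0415), and Mrpl49 was called higher (0.34, adjusted p 0.0378). Mrpl49 was called in 2 of 21 alternatives, both with a length offset. With single libraries left out, the call was lost in 6 of 11 fits for Mrps23, 7 for Mrpl17, 4 for Mrpl4 and 7 for Slc25a4. Under placebo 0 genes of these lists were called, where 0.00688% of all genes were.

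Estradiol over placebo in WT gave 0 calls among the 177 genes of these lists, where 1.55% of all genes were called. In KO it gave 2 (1.13%), which is below the 2.73% of all genes called, so the count says nothing particular about these lists. Ucp2, an inner membrane carrier named as an uncoupling protein and known to be high in immune cells, had 301, 363 and 281 CPM in KO estradiol, against 235, 244 and 205 CPM in KO placebo libraries, and rose (log2 difference 0.47, adjusted p 0.0478). Pfkm, the muscle form of phosphofructokinase, had 33.1, 26.8 and 30.1 CPM in KO estradiol, against 53.3, 57.1 and 37.1 CPM in KO placebo libraries, and fell (-0.71, adjusted p 0.0431). Neutrophil markers were higher in KO estradiol (1266 to 4543 CPM) than in KO placebo libraries (1.48 to 728 CPM), and muscle markers were lower (11.6 to 15.6 CPM, against 87.8 to 795 CPM). Without the 3 muscle-rich placebo libraries, which leaves 1 KO placebo sample, neither gene was called (Pfkm -0.30, adjusted p 0.555, and Ucp2 0.62, adjusted p 0.239). With single libraries left out, Pfkm lost its call in 7 of 11 fits and Ucp2 in 7 of 11. The part of neutrophils in the Ucp2 call was not tested.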

How the data were processed

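Poly-A RNA of 11 samples was sequenced. The submitters' processing notes name bcl2fastq 2.17, TopHat and mm9, the mouse build. Which program and gene models gave the counts, and whether it read strand, is not given in the sources used here. Raw whole-number counts per gene symbol stand in the authors' deposited table, each of whose value columns was mapped to a sample. Their deposited tables of pairwise comparisons, per the file headers, hold a mean signal per gene, a log2 fold change with its standard error, a test score, a p-value and an adjusted p-value, and only the authors' calls among the members are quoted, with the direction read against the counts.

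Everything else derives from these counts. With edgeR 4.0.16 under R 4.3.3, filterByExpr (minimum count 10, minimum total 15) kept 14531 genes holding 99.98% of counts. edgeR scaled libraries by TMM and fitted a robust quasi-likelihood model to the 4 groups over all 11 samples (7 residual degrees of freedom, common coefficient of variation 15.8%). Each adjusted p is from its quasi-likelihood test, adjusted by Benjamini and Hochberg's method across all 14531 genes, and a gene was called under 0.05. Standard errors (SE) are the absolute log2 difference over the square root of F. CPM are TMM-scaled, and a 0 allows up to 3 counts per library, for counting error only. No molecular identifiers are named, so reads may repeat a molecule.

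Levels between genes are per kb of GENCODE exons on GRCm38, matched by symbol for 81 of 81 members, and promoters are those of RefSeq on GRCm38.p6. No coordinates were carried between builds. No pair of libraries matched within sampling noise. Same-numbered KO placebo and KO estradiol samples deviated together (correlations 0.285, 0.420 and 0.183), so that comparison was also fitted with the number as a block.

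Alternatives were RLE and upper-quartile scaling, no filter, DESeq2 1.42.0, limma-voom 3.58.1, the replicate block, leaving out each library, leaving out the 3 libraries richest in muscle markers, and fitting the compared groups alone. An offset for exonic length, from a lowess of each library's log2 CPM deviation on log2 length, was added after seeing the data. The fit was also run on simulated counts with independent genes, changes larger than the members' median difference and no length trend. That run does not bear on a small difference that the members share. Members, lists and tests were chosen with earlier results of these data known. The text names called members (the 12 with the smallest p, and also Atp5e as the last one called), tissue isoforms, catalytic and redox core subunits, members with extreme differences and called genes of the other lists. Single-gene values of 1 member, which is counted in the totals, are not reported here.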

Additional observations from a re-analysis of the deposited data

How the results depend on the processing

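The number of members called in KO relative to WT under estradiol was 13. It was 12 with RLE scaling, 15 with upper-quartile scaling, 13 with no filter, 11 with limma-voom, 14 without the 3 muscle-rich placebo libraries, 17 with the compared groups alone, 26 with DESeq2 and 2 with either exonic length offset, added after seeing the data. With 1 library left out at a time it ran from 0 to 28. All these calls were lower in KO. Of the 13, Atp5g2 passed in 17 of 21 alternatives and Atp5e in 5. The members' median for that comparison was -0.07 with each length offset (-0.069, and -0.073 when fitted without the members), and ran from -0.22 to -0.33 elsewhere. For KO relative to WT under placebo the median was -0.036 and -0.037 with the offsets and -0.35 to -0.046 with single libraries left out, and members called ran from 0 to 1. For estradiol in WT the median was 0.21 without the 3 muscle-rich libraries and -0.093 to 0.21 with single libraries left out, and it changed sign without WT placebo 1 (-0.093). The highest median of the interaction with a library left out was 0.24 and the lowest, without WT placebo 1, was -0.048. For estradiol in KO the members called were 2 with DESeq2 and 0 to 1 with single libraries left out. The cause of these moves was not tested. The replicate block called 11 members in KO relative to WT under estradiol and 0 in the other comparisons, and it changed no other member count. Outside the KO estradiol and placebo pair, 6 of 12 same-number correlations were over 0.1, so not every pair was. Over all group pairs it was 9 of 15, against 2 of 30 for samples with other numbers. Deviations were taken from group means and cancel within a group, so these 2 counts are tied and the second is no independent baseline. The labels do not say whether numbers are shared, and these counts cannot decide it. Counts over all genes moved more, from 1 to 952 for estradiol in KO (1 without the muscle-rich libraries), 113 to 656 for estradiol in WT, 68 to 561 for the interaction, 1 to 50 for the genotypes under placebo and 867 to 2225 under estradiol. Counting error is small for most members, and only Cox8b, Cox7a1, Cox6a2, Cox6b2, Atp5l and Ndufb4 are limited by depth.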
